A study of Mus musculus with 28 samples.

Results

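Nephrectomy was compared with sham surgery in the ventricular myocardium of 28 male C57BL/6 mice, averaged over the gavage that the mice had received. All 28 libraries of the series entered, 13 from mice with chronic kidney disease (CKD) and 15 from sham-operated mice. CKD was produced by 5/6 nephrectomy, in which most kidney tissue is removed in a pair of operations, begun at 6 weeks of age. All groups ate the same diet, with 1% hydroxyproline, which the body turns into oxalate, and 0.5% calcium. On day 7 each mouse was gavaged with 200 µl of culture medium, either plain (vehicle) or carrying the oxalate-degrading gut bacterium Oxalobacter formigenes (Oxf). The groups were sham-vehicle (10 mice), CKD-vehicle (6 mice), sham-Oxf (5 mice) and CKD-Oxf (7 mice). The hearts were perfused and frozen, and each mouse gave 1 library. The stated design had 10 mice per group, and the other mice were not analysed here. The surgery effect is the mean of CKD-vehicle minus sham-vehicle and CKD-Oxf minus sham-Oxf, so both gavage arms have equal weight and share no library.

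Loss of kidney function is known to burden the heart through pressure, volume, retained solutes and hormones, and typically leads to thickening of the ventricle and fibrosis. Heart muscle makes nearly all of its ATP in mitochondria, mainly from fatty acids, and spends most of it on the sarcomere, the array of myosin and actin filaments that contracts. Chaperones of the heat shock family fold and refold these proteins, and their genes respond within hours to heat, handling and other stress.

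Library totals ranged from 19.8 to 65.4 M counts (median 38.1 M). Mean totals were 9.22 M higher in CKD than in sham libraries (mean of both arms, exact two-sided permutation within arms, p = 0.0101, adjusted over 3 measures 0.0304). The share of 7SL RNA, a small cytoplasmic RNA of the signal recognition particle that is counted from 2 near-identical copies, ranged from 1.83% to 21.0%. Its log2 share was 0.72 higher in CKD (exact permutation p = 0.0985, adjusted 0.148). Sham-Oxf replicate 1 stood apart, with the smallest total and 15879 genes detected against 27128 to 33995 elsewhere. Without it, the total differed by 7.79 M (adjusted exact permutation p = 0.0617) and the log2 7SL share by 0.93 (adjusted 0.0617). The 10 cardiomyocyte markers were present in every library, with summed levels from 15463 to 45517 CPM (counts scaled to a common library size). Atrial markers were present in every group too, with summed levels between 131 and 3238 CPM. In whole tissue, fewer cells of a type and less RNA per cell cannot be told apart.

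No gene passed the threshold for surgery averaged over gavage. Of 24273 genes tested, 0 had an adjusted p under 0.05 in edgeR's quasi-likelihood test (the smallest was 0.230), and 2579 (10.6%) had an unadjusted p under 0.05, against 1214 that this threshold gives by chance. Of these, 1256 (5.17% of the genes tested) were higher in CKD and 1323 (5.45%) lower. DESeq2 called 103 genes (0.424%), 18 higher (0.0742%) and 85 lower, and limma's voom with sample weights called 125 (0.515%), 45 higher (0.185%) and 80 lower. Both tools called 40 of the same genes. With the log2 7SL share as a covariate edgeR called 45 genes (0.185%), of which 3 were higher (0.0124%) and 16 were major urinary protein (Mup) genes. With a circadian clock score as covariate it called 2 genes (0.00824%), both lower. The interaction of surgery with gavage had 0 genes past the threshold in edgeR, and 862 (3.55%) at an unadjusted p under 0.05.

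The arms shared a direction for 60.5% of all genes tested, 30.8% higher in CKD in both and 29.7% lower in both. In 115 genes (0.474%) each arm alone had an unadjusted p under 0.05 with the same sign, 48 of them higher and 67 lower, and in 10 genes (0.0412%) the signs were opposite. In the vehicle arm 2 genes (0.00824%) had an adjusted p under 0.05, Cish and RP23-230H3.6, and 1083 (4.46%) had an unadjusted p under 0.05. In the Oxf arm 0 genes passed in edgeR (smallest adjusted p 0.195), and 1997 (8.23%) had an unadjusted p under 0.05. The 25 genes chosen below for the smallest p each had an adjusted p of 0.230 in edgeR. The pathway members named after them were chosen within their lists and had adjusted p up to 0.554. These p-values describe a ranking rather than calls.

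**Figure D1:**
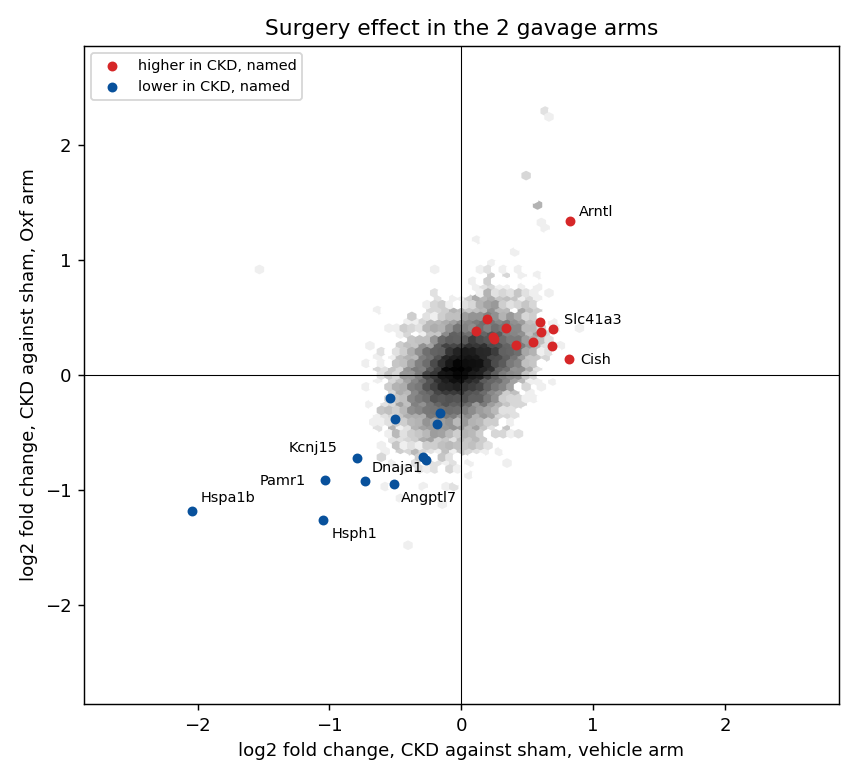
Log2 fold change of CKD against sham in the vehicle arm (horizontal axis) and in the Oxf arm (vertical axis). Grey cells hold genes whose mean level was 1 log2 CPM or more, darker with more genes (1 gene beyond the axes is drawn at the edge), and coloured points are the named genes with the smallest p. Hspa1b, Hsph1 and Dnaja1 lie at the lower left and Arntl at the upper right.

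Transcripts of 6 chaperone and co-chaperone genes were lower in CKD hearts than in sham hearts in both arms, each at an unadjusted p under 0.05. Hsph1 encodes the nucleotide exchange factor HSP105, Dnaja1 and Dnajb1 encode J-domain partners of HSP70, Hspa1a and Hspa1b encode the inducible HSP70 itself, and Chordc1 encodes a partner of HSP90. Heat shock factor binds inverted repeats of the letters GAA. The sites below show this repeat, in capitals, where it was found in front of these genes; the letters are from RefSeq promoters on GRCm38.p6.

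Hsph1 (chr5:149636351-149636380, minus strand): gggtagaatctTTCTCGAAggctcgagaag
Dnaja1 (chr4:40722333-40722362, plus strand): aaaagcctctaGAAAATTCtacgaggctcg
Hspa1b (chr17:34959324-34959353, minus strand): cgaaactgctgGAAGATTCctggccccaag

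The motifs searched were GAANNTTC and TTCNNGAA, each its own reverse complement, in the 250 bases before the start. A match was found in 4218 of 32851 such windows (12.8%), and at least 1 window held it in 3932 of 27025 genes (14.5%). It was found in 12 of the 29 heat shock genes with a window, of which 4 were among the 6 genes lower at an unadjusted p under 0.05. A link of the motif with the effects was not tested. The Hsph1 motif lay 33 bases before the RefSeq start and the Dnaja1 motif 124 bases before it, in 1 of the 3 Dnaja1 windows. Both of these sites fall inside the longer GENCODE gene models. The Hspa1a and Hspa1b motifs lay 104 bases before their starts, and the 250-base windows of the 2 copies differ at 3 positions. The full window of Hspa1b is shown because it holds the motif in the copy with the larger difference.

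Hspa1b window (chr17:34959239-34959488, minus strand): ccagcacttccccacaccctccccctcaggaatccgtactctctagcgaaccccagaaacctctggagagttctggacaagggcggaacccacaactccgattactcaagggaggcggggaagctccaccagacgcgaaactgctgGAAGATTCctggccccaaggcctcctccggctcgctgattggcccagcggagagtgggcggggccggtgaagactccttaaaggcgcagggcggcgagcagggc

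Hsph1 (chr5:149614287-149636376) was between 13.8 and 112 CPM in sham-vehicle hearts (median 47.3) and between 20.7 and 29.5 CPM in CKD-vehicle hearts (median 24.9). With Oxf it was 25.4, 29.6, 26.4, 30.4 and 54.0 CPM in the 5 sham hearts and between 9.50 and 18.7 CPM in CKD hearts (median 13.8). The Oxf groups did not overlap, whereas in the vehicle arm sham replicates 1 and 6 lay below the CKD range and replicates 3 and 5 far above it. The surgery effect was -1.15 ± 0.24 (log2 fold change ± SE), a 2.22-fold lower level, with -1.05 ± 0.32 in the vehicle arm and -1.26 ± 0.35 in the Oxf arm. The adjusted p was 0.00218 in DESeq2, 0.0354 in limma and 0.00484 in edgeR with the 7SL covariate. Without sham-vehicle replicates 3 and 5 the effect was -0.96.

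Dnaja1 (chr4:40722150-40737149) had a median of 69.0 CPM in sham-vehicle and 43.0 CPM in CKD-vehicle hearts, with ranges of 24.6 to 157 and 34.6 to 57.6. With Oxf the 5 sham hearts held 40.9, 53.1, 49.5, 57.8 and 61.4 CPM, all above the CKD range of 23.004 to 35.7 (median 25.2). The effect was -0.83 ± 0.19, with adjusted p of 0.0156 in DESeq2, 0.0399 in limma and 0.00732 in edgeR with the 7SL covariate. Dnaja1 overlaps Smu1 and other annotated genes, so reads in the shared stretch cannot be assigned with certainty.

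Hspa1b (chr17:34956436-34959238) spanned 6.03 to 135 CPM in sham-vehicle hearts (median 16.9) but 6.11 to 12.99 CPM in CKD-vehicle hearts (median 9.24). Its sham-Oxf values were 5.64, 18.9, 16.5, 9.16 and 20.5 CPM, and CKD-Oxf hearts lay between 4.16 and 8.81 CPM (median 5.80). All 13 CKD hearts were below the sham median of their arm, 6 of 6 and 7 of 7, although the ranges overlapped in both arms. The effect was -1.61 ± 0.41, and -1.02 without sham-vehicle replicates 3 and 5, where Hspa1b reached 118 and 135 CPM. Adjusted p was 0.0302 in DESeq2 but 0.104 in limma. Reads of Hspa1b and its copy Hspa1a can be counted at either gene, so neither value stands alone; Hspa1a had an effect of -1.46 ± 0.47.

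Of the 36 genes in the heat shock list, 6 were lower at an unadjusted p under 0.05 (16.7%, against 5.45% of all genes). At the same threshold 1 was higher (2.78%, against 5.17%). The higher one was the mitochondrial HSP70 gene Hspa9 (0.41 ± 0.17, adjusted p 0.393 in edgeR). Dnajb1 (-0.66 ± 0.18), Hspa1a (adjusted p 0.294) and Chordc1 (-0.49 ± 0.18, adjusted p 0.335) were named after their values had been seen. The list as a whole had a median of 0.03, close to that of all genes (-0.0007). The 29 members with a larger p lay between -0.22 and 0.42. Among them were the constitutive HSP70 gene Hspa8 (-0.06 ± 0.19, adjusted p 0.948 in edgeR), the endoplasmic reticulum HSP70 gene Hspa5 (0.42 ± 0.21), and the heat-inducible Hspb1 (-0.0007 ± 0.18) and Bag3 (-0.007 ± 0.11).

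**Figure D2:**
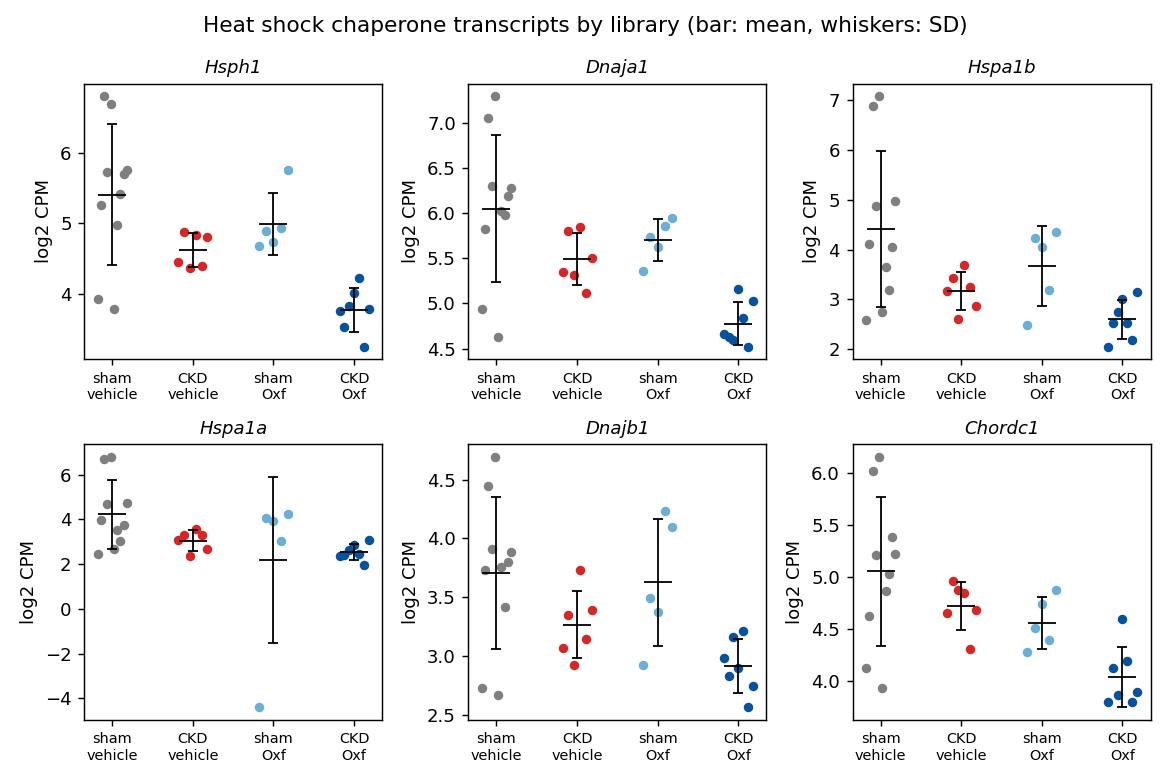
Log2 CPM of 6 chaperone genes, 1 point per heart, by group; horizontal bars are means and whiskers are SD of log2 CPM. In 5 of the genes the sham-vehicle hearts spread most and the CKD-Oxf mean lies lowest; for Hspa1a the sham-Oxf group spreads most, with replicate 1 at 0.0474 CPM.

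The other lower genes with the smallest p had effects between -0.97 (Pamr1) and -0.25 (Slc23a2), each in the same direction in both arms. Slc23a2, a sodium-dependent vitamin C transporter, was between 19.7 and 22.3 CPM in sham-vehicle hearts (median 21.6) and between 18.7 and 20.0 CPM in CKD-vehicle hearts (median 19.0). The sham-Oxf hearts held 29.7, 22.2, 20.4, 25.8 and 26.9 CPM, against 18.6 to 21.9 CPM in CKD-Oxf hearts (median 19.4). All 13 CKD hearts were below the sham median of their arm, and the ranges overlapped in both arms. The effect was -0.25 ± 0.06, with adjusted p of 0.000738 in DESeq2, 0.0345 in limma and 0.0487 in edgeR with the 7SL covariate.

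Tpst1, which encodes a Golgi enzyme that sulfates tyrosines, was between 11.5 and 16.7 CPM in sham-vehicle (median 13.6) and between 8.70 and 11.4 CPM in CKD-vehicle hearts (median 9.69), without overlap. In the Oxf arm its sham values were 13.8, 13.6, 14.2, 18.02 and 15.5 CPM, and the CKD range of 7.25 to 15.4 CPM (median 12.8) overlapped them. The effect was -0.44 ± 0.09. Spry4, an inhibitor of receptor tyrosine kinase signalling, showed the reverse arrangement. Its Oxf groups did not overlap, with sham hearts at 23.2, 14.2, 13.6, 16.8 and 14.0 CPM and CKD hearts between 7.69 and 12.1 CPM (median 10.1). Its vehicle groups overlapped, with medians of 14.5 CPM in sham and 11.9 CPM in CKD hearts, and the effect was -0.50 ± 0.11.

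Lpcat1, a lysophosphatidylcholine acyltransferase, had an effect of -0.30 ± 0.07 and did not overlap in the Oxf arm. Scarb1, the receptor that takes up cholesterol from high-density lipoprotein, was at medians of 26.9 CPM in sham-vehicle and 16.4 CPM in CKD-vehicle hearts, with an effect of -0.37 ± 0.09. In the Oxf arm its sham range of 22.7 to 30.9 CPM overlapped the CKD range of 17.7 to 27.6 CPM. Lrrc32, which anchors latent TGF-beta on the cell surface, had an effect of -0.50 ± 0.12, and the potassium channel gene Kcnj15 one of -0.76 ± 0.18. Pamr1 (-0.97 ± 0.23) and Angptl7 (-0.73 ± 0.19), both encoding secreted proteins, completed the 12 lower genes. In Lrrc32, Kcnj15, Pamr1, Angptl7, Spry4 and Slc23a2 the highest of the 5 sham-Oxf values was that of replicate 1, the library with few genes detected. Without that library the effects were -0.37, -0.60, -0.69, -0.62, -0.42 and -0.21 in that order.

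Xirp1 and Klhl41, both genes of striated muscle, were higher in CKD in both arms. Xirp1 encodes an actin-binding protein of the intercalated disc, and Klhl41 a muscle protein that stabilises the sarcomere. Xirp1 (chr9:120013755-120023598) was between 98.3 and 146 CPM in sham-vehicle hearts (median 122) and between 154 and 250 CPM in CKD-vehicle hearts (median 175), without overlap. Sham-Oxf hearts held 153, 93.1, 118, 118 and 121 CPM, and CKD hearts ranged from 103 to 203 CPM (median 151), which overlapped. The effect was 0.49 ± 0.11, a 1.40-fold higher level, with adjusted p of 0.0113 in DESeq2, 0.0345 in limma and 0.122 in edgeR with the 7SL covariate. Klhl41 had an effect of 0.53 ± 0.14, and all 13 CKD hearts were above the sham median of their arm.

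Esrrg encodes the nuclear receptor ERR-gamma, a regulator of mitochondrial and contractile genes in the heart. It was between 19.0 and 28.02 CPM in sham-vehicle hearts (median 23.4) and between 26.3 and 31.6 CPM in CKD-vehicle hearts (median 29.97). In the Oxf arm it was 12.7, 17.2, 22.5, 25.2 and 23.3 CPM in sham and between 21.0 and 31.8 CPM in CKD hearts (median 26.6). The groups overlapped in both arms, and the effect was 0.37 ± 0.09. Usp25, a deubiquitinase, gave similar effects in the arms, 0.25 ± 0.09 with vehicle and 0.31 ± 0.10 with Oxf. Its medians were 63.8 CPM in sham-vehicle, 76.2 CPM in CKD-vehicle and 80.0 CPM in CKD-Oxf hearts, with sham-Oxf hearts at 63.4, 50.3, 70.3, 68.6 and 62.1 CPM. All 13 CKD hearts were above the sham median of their arm for Usp25.

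Slc41a3, a magnesium transporter, had medians of 19.9 CPM in sham-vehicle and 30.7 CPM in CKD-vehicle hearts. With Oxf the sham hearts held 14.0, 9.61, 11.8, 9.24 and 11.1 CPM, against 13.02 to 20.6 CPM in CKD-Oxf hearts (median 14.2). All 13 CKD hearts were above their sham median, and the effect was 0.55 ± 0.12, which became 0.24 in the fit with the clock score as covariate. The inward-rectifier potassium channel gene Kcnj12 had an effect of 0.41 ± 0.11. Ndrg4, a gene needed for cardiomyocyte growth in fish, had one of 0.34 ± 0.09, and Mapk6, which encodes the atypical kinase ERK3, one of 0.25 ± 0.07. The interferon-inducible Ifi204 (0.34 ± 0.08) did not overlap in the Oxf arm, where its 5 sham values of 9.06, 10.4, 11.8, 9.02 and 8.93 CPM lay below a CKD range of 12.3 to 17.2 CPM. Osbpl1a, a lipid transfer protein gene, had an effect of 0.29 ± 0.08. In Esrrg, Mapk6 and Osbpl1a the lowest of the 5 sham-Oxf values was that of replicate 1, the library with few genes detected. In Xirp1, Slc41a3, Ndrg4 and Cish that library held the highest. When single libraries were left out, the smallest effects of Esrrg, Mapk6 and Osbpl1a were 0.31, 0.21 and 0.23.

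Cish, a feedback inhibitor of cytokine and growth hormone signalling through STAT5, was between 18.5 and 28.3 CPM in sham-vehicle hearts (median 19.9) and between 29.9 and 53.9 CPM in CKD-vehicle hearts (median 34.5). In the Oxf arm it was 29.7, 28.1, 18.6, 21.7 and 18.4 CPM in sham and between 20.3 and 36.2 CPM in CKD hearts (median 25.2). The vehicle groups did not overlap and the Oxf groups did, with effects of 0.82 ± 0.14 and 0.14 ± 0.16. RP23-230H3.6, an annotated gene with a clone name on chromosome 2, had the smallest p of all genes. It was between 10.7 and 17.9 CPM in sham-vehicle (median 13.3) and between 17.9 and 25.98 CPM in CKD-vehicle hearts (median 21.8). In the Oxf arm its sham range of 13.3 to 16.1 CPM overlapped the CKD range of 13.96 to 21.8 CPM. Its effect was 0.47 ± 0.09, and 0.68 in the vehicle arm. Arntl (Bmal1), an activator of the circadian clock, had an effect of 1.08 ± 0.28 and is taken up with the clock genes below.

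**Figure D3:**
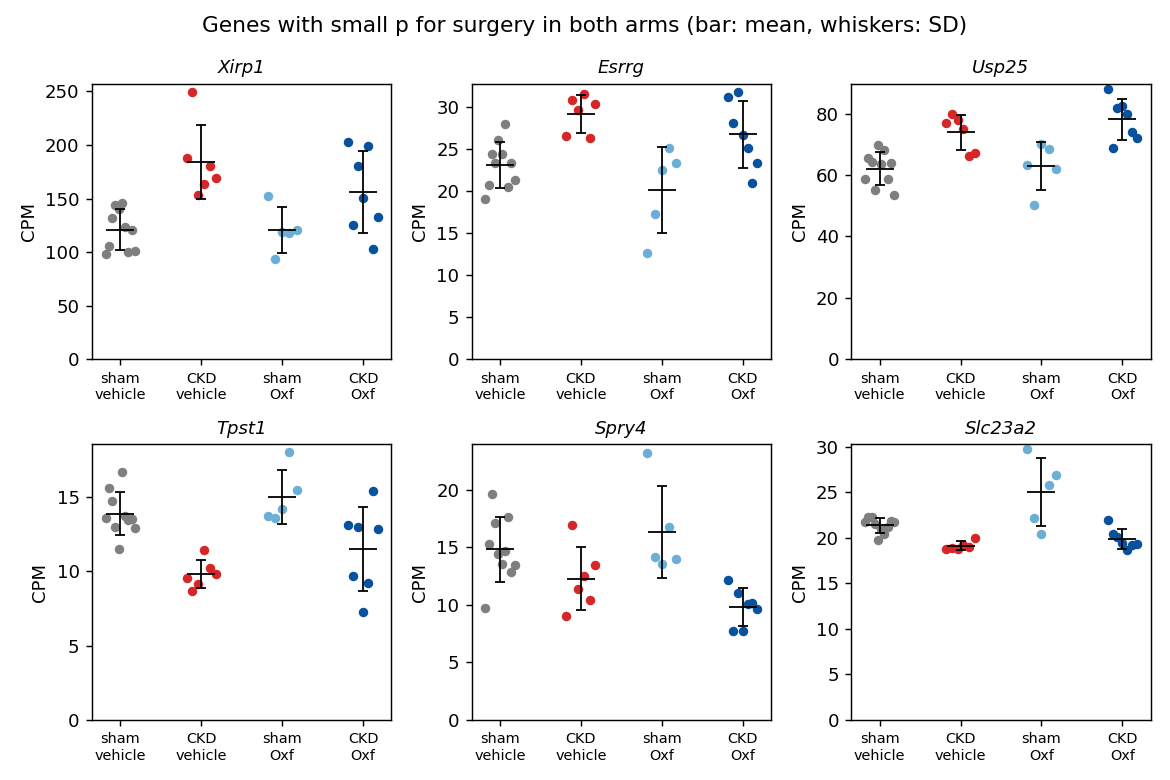
CPM of 6 genes named for the smallest p, 1 point per heart, by group; horizontal bars are means and whiskers are SD. Xirp1, Esrrg and Usp25 lie higher in CKD and Tpst1, Spry4 and Slc23a2 lower, with overlap between groups in at least 1 arm of each.

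Of the 25 genes chosen by smallest p, 22 had an adjusted p under 0.05 in DESeq2, 16 in limma, 14 in both and 7 in edgeR with the 7SL covariate. Only 1 of them did with the clock score as covariate, Lrrc32. Over 39 alternative fits, none of the genes Hsph1, Dnaja1, Hspa1b, Xirp1, Slc41a3, Esrrg, Usp25, Spry4, Slc23a2, Tpst1, Lpcat1, Cish and RP23-230H3.6 changed sign. The other tools and fits reuse the libraries in which these genes were chosen, so they are not independent evidence. Of the 25 genes, 14 overlap another annotated gene, among them Xirp1 with Cx3cr1 and Angptl7 with Mtor.

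Pathways were described by their lists of genes. A list has a shared direction where its median is on the same side of the median of all genes in both arms, with at least 60% of at least 8 members on that side in each arm. The medians of all genes were -0.03 in the vehicle arm and 0.05 in the Oxf arm. For the counts below, 30.8% of all genes were higher and 29.7% lower in both arms. At an unadjusted p under 0.05, 5.17% were higher and 5.45% lower. Of 57 pathway lists, 20 were higher in CKD in both arms, 4 were lower, 3 were opposite in the arms and 30 had no shared direction. The higher lists were those of the respiratory chain, citric acid cycle, glycolysis and glycogen, fatty acid oxidation, branched-chain amino acid breakdown and mitochondrial dynamics, of the sarcomere and of fetal and stress genes, and of the cytosolic ribosome, mitochondrial ribosome, translation factors and small nucleolar RNAs. The proteasome, autophagy and lysosome, FoxO targets, insulin signalling, glucocorticoid response, endoplasmic reticulum stress, hypoxia response and iron handling completed them. The counts rest on few libraries: 8 lists were higher without sham-Oxf replicate 2, 11 without CKD-Oxf replicate 4 and 23 without sham-Oxf replicate 1.

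The share of 7SL RNA moved with these lists. With its log2 share as a covariate, 1 of the 20 higher lists kept its direction (glucocorticoid response) and 1 of the 4 lower lists (calcification and cartilage). With the clock score as covariate, 10 of the 20 higher lists and 2 of the 4 lower lists kept theirs. In that fit the respiratory chain median was 0.10, with 1 member higher at an unadjusted p under 0.05. The sarcomere median was 0.15 and that of the citric acid cycle 0.10, each with 0 such members. The cytosolic ribosome list was opposite in the arms, with a vehicle-arm median of -0.02. Cardiomyocyte markers also moved with the higher lists, since 9 of the 10 were higher in both arms. Their summed level had a median of 24732 CPM in sham and 29591 CPM in CKD hearts of the vehicle arm, and of 23151 CPM and 26403 CPM in those of the Oxf arm. The median effect of these markers was 0.39, and 0.09 with the 7SL covariate. The markers are not independent of the lists, since Myh6 is also a member of the sarcomere list. Effects were more positive in abundant genes, with a median of 0.09 over the 90 genes above 9 log2 CPM and -0.12 over the 7869 genes below 0. The part of 7SL share, clock score, cell content and abundance in the list medians was not tested.

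**Figure D4:**
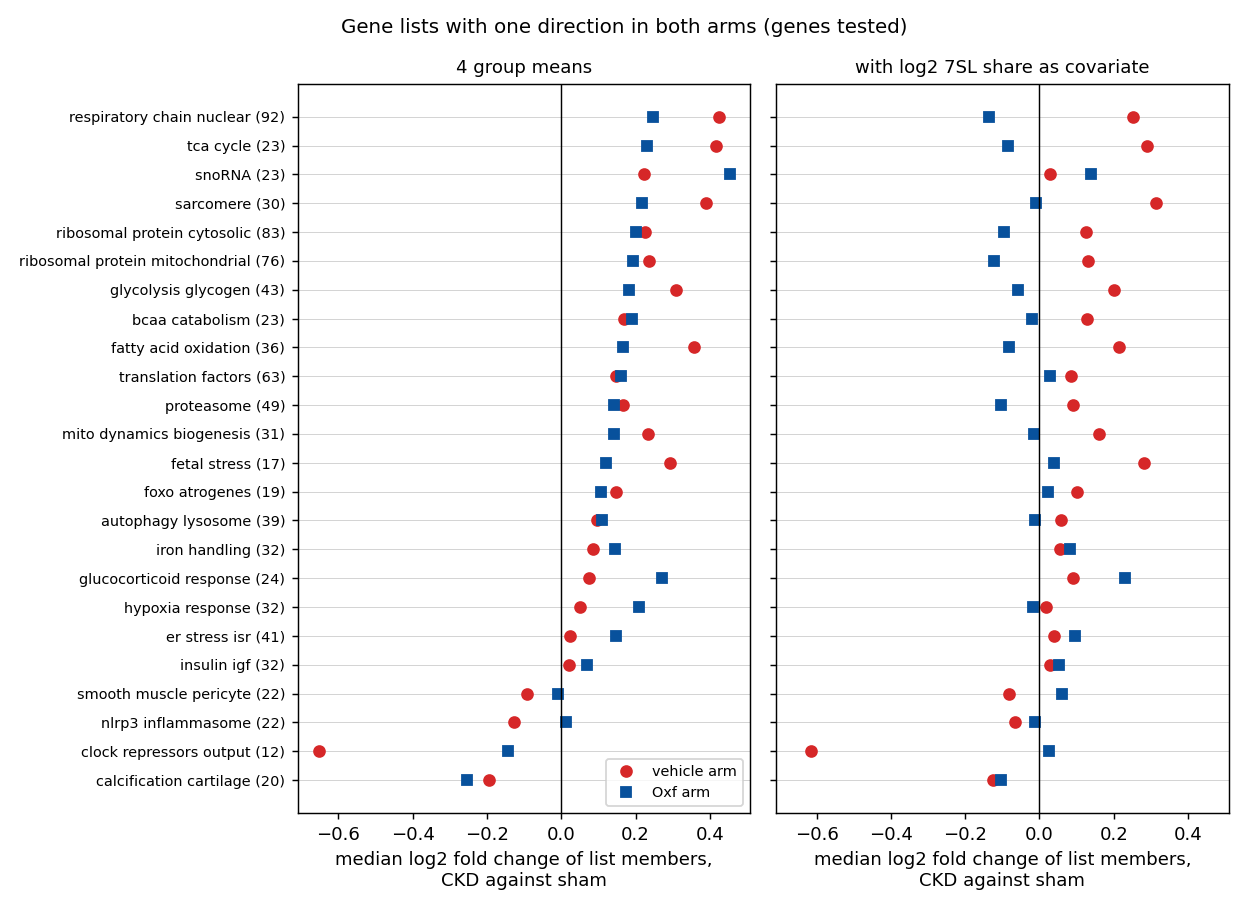
Median log2 fold change of CKD against sham over the members of each list with a shared direction, in the vehicle arm (circles) and the Oxf arm (squares), without (left) and with (right) the log2 7SL share as covariate. On the left 20 lists lie to the right of the all-gene medians in both arms; on the right most Oxf-arm medians lie near or below 0 while the vehicle-arm medians of the metabolic lists stay above it.

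Nuclear genes of the respiratory chain, which pumps protons and makes ATP in the mitochondrial inner membrane, were higher in CKD in both arms in 83 of 92 members. That was 90.2% of them, against 30.8% of all genes tested. At an unadjusted p under 0.05, 21 were higher (22.8%, against 5.17% of all genes) and 0 lower. The median effect was 0.34, with 0.42 in the vehicle arm and 0.25 in the Oxf arm. All 5 complexes shared this. The median was 0.34 for 38 subunits of complex I, 0.29 for 4 of complex II, 0.38 for 9 of complex III, 0.32 for 16 of complex IV and 0.37 for 17 of complex V. The complex I assembly factor gene Ndufaf4 (0.38 ± 0.13, adjusted p 0.323 in edgeR) had the smallest p of the list. Its medians were 19.3 CPM in sham-vehicle and 27.4 CPM in CKD-vehicle hearts, and its sham-Oxf values of 17.3, 11.9, 17.0, 18.9 and 16.9 CPM overlapped the CKD-Oxf range of 14.8 to 34.3 CPM. Cox7b, a subunit of cytochrome c oxidase, had the largest of the named effects, 0.70 ± 0.27, with wide ranges of 41.8 to 196 CPM in sham-vehicle and 62.0 to 246 CPM in CKD-vehicle hearts. Ndufv2 (0.50 ± 0.21) and Ndufa11 (0.42 ± 0.18) are complex I subunits.

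With the 7SL covariate the respiratory chain median was 0.06, with 0.25 in the vehicle arm and -0.14 in the Oxf arm, and 0 members had an unadjusted p under 0.05. Without CKD-Oxf replicate 4 the median of the respiratory chain was 0.23 and its Oxf-arm median 0.06, and without sham-Oxf replicate 2 the Oxf-arm median was 0.13. These are the CKD-Oxf library with the highest 7SL share (20.6%) and the sham-Oxf library with the lowest (1.83%). Without sham-Oxf replicate 1 the Oxf-arm median was 0.40, and without CKD-vehicle replicate 2 the vehicle-arm median was 0.24.

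**Figure D5:**
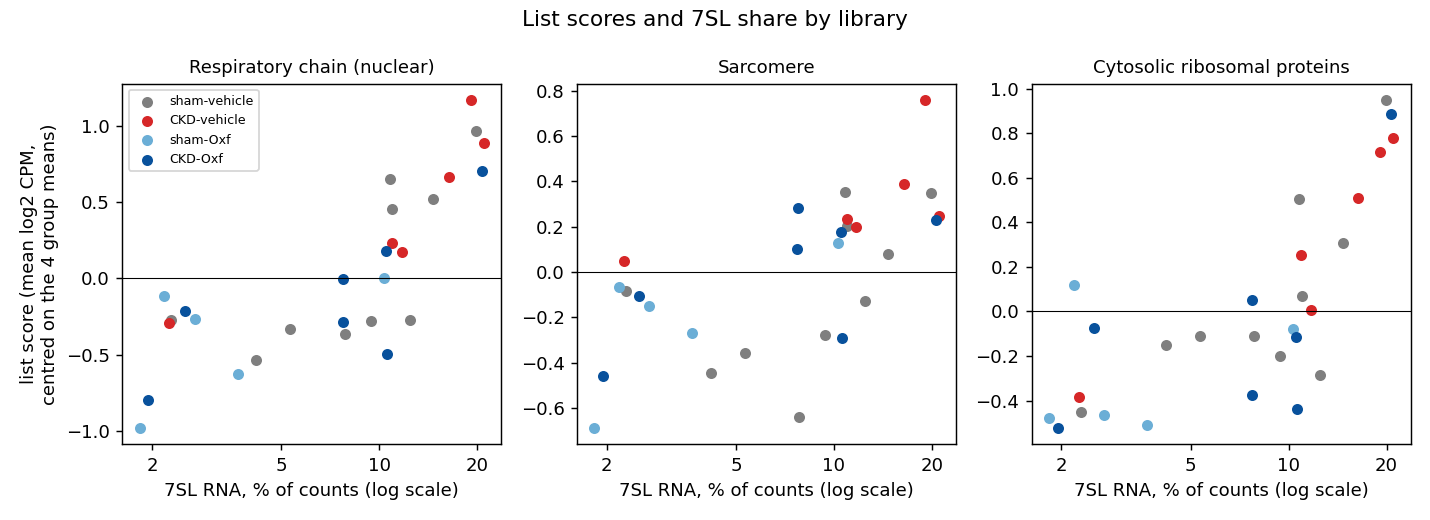
Score of 3 gene lists (mean log2 CPM of the members, centred on the 4 group means) against the percentage of counts from 7SL RNA on a log axis, 1 point per heart, coloured by group. The 5 libraries with the highest 7SL shares (16.4% to 21.0%) have positive scores in all 3 panels, and 4 of the 5 sham-Oxf libraries have a 7SL share under 4%.

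In the citric acid cycle and its linked transaminases 20 of 23 members were higher in both arms (87.0%, against 30.8% of all genes). At an unadjusted p under 0.05, 5 were higher (21.7%, against 5.17%) and 0 lower, and the median effect was 0.34. Idh3a (0.45 ± 0.18) and Idh3g (0.34 ± 0.16) encode subunits of the NAD-dependent isocitrate dehydrogenase, and Got1 (0.39 ± 0.17) and Got2 (0.38 ± 0.17) the aspartate transaminases of the malate-aspartate shuttle. Idh3a had medians of 86.7 CPM in sham-vehicle, 144 CPM in CKD-vehicle and 89.5 CPM in CKD-Oxf hearts, and values of 92.0, 50.03, 98.5, 72.6 and 67.8 CPM in sham-Oxf hearts. Its groups overlapped in both arms. Without CKD-vehicle replicate 2 the list median was 0.22. The 4 succinate dehydrogenase genes belong to this list and to the respiratory chain list.

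Of the genes of glycolysis, glycogen and pyruvate oxidation, 37 of 43 were higher in both arms (86.0%, against 30.8% of all genes). At an unadjusted p under 0.05, 9 were higher (20.9%, against 5.17%) and 0 lower, and the median effect was 0.24. Pdk4, the kinase that shuts off pyruvate dehydrogenase when fat is burned, had an effect of 0.62 ± 0.21, larger in the Oxf arm (0.91 ± 0.32) than in the vehicle arm (0.33 ± 0.27). The interaction of surgery with gavage had 0 genes past the threshold, so this difference is not a call. In CKD-Oxf replicate 7 Pdk4 was at 168 CPM, against 30.3 to 77.5 CPM in the other CKD-Oxf hearts. Sham-Oxf hearts held 23.2 to 49.3 CPM. When single libraries were left out, the effect of Pdk4 ranged from 0.43 to 0.69. Without CKD-vehicle replicate 2 the list median was 0.14. Hk1, a hexokinase, had an effect of 0.30 ± 0.10, and Gyg, the glycogenin that primes glycogen, one of 0.40 ± 0.15.

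The list of branched-chain amino acid breakdown had 18 of 23 members higher in both arms and 10 at an unadjusted p under 0.05, all higher (43.5%, against 5.17% of all genes). Its median of 0.19 was below those of the respiratory chain and the citric acid cycle. Hsd17b10, a mitochondrial dehydrogenase of isoleucine breakdown, had medians of 9.83 CPM in sham-vehicle and 16.3 CPM in CKD-vehicle hearts, and an effect of 0.61 ± 0.22. With Oxf the sham hearts held 6.50, 5.74, 8.12, 9.65 and 5.54 CPM, within or below the CKD-Oxf range of 6.62 to 22.8 CPM. Ppm1k (0.36 ± 0.15) is the phosphatase that switches on the branched-chain ketoacid dehydrogenase, Pcca (0.24 ± 0.09) a subunit of propionyl-CoA carboxylase, and Acadsb (0.35 ± 0.15) the short branched-chain acyl-CoA dehydrogenase. Without CKD-vehicle replicate 2 the list median was 0.13. With the 7SL covariate the median was 0.06 and 0 members had an unadjusted p under 0.05.

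All 30 sarcomere genes had a positive effect (49.9% of all genes did), 27 of them in both arms and 10 at an unadjusted p under 0.05 (33.3%). The median effect was 0.32, with 0.39 in the vehicle arm and 0.22 in the Oxf arm. The Oxf-arm median was 0.11 without sham-Oxf replicate 2, 0.13 and 0.14 without CKD-Oxf replicates 4 and 5, and 0.35 without sham-Oxf replicate 1. The vehicle-arm median was 0.26 without CKD-vehicle replicate 2. Myom1, which encodes the M-band protein myomesin, was between 453 and 747 CPM in sham-vehicle (median 589.9) and between 669 and 917 CPM in CKD-vehicle hearts (median 772). In sham-Oxf hearts it was 836, 382, 595, 596 and 577 CPM, overlapping the CKD-Oxf range of 525 to 925 CPM, and the effect was 0.32 ± 0.11. Nebl, a thin-filament protein of the Z-disc, had an effect of 0.27 ± 0.10, Myh6, the main ventricular myosin of the mouse, one of 0.34 ± 0.13, and Myoz2, a calcineurin-binding Z-disc protein, one of 0.48 ± 0.19. With the 7SL covariate the list median was 0.31 in the vehicle arm and -0.01 in the Oxf arm. The list of fetal and stress genes had 12 of 17 members higher in both arms (70.6%, against 30.8% of all genes). At an unadjusted p under 0.05 it had 4 (23.5%, against 5.17%), all higher. Nppb, the B-type natriuretic peptide, was one of these (0.82 ± 0.28, adjusted p 0.313 in edgeR). Atrial markers moved with this list: 10 of 11 were higher in both arms, 0 at an unadjusted p under 0.05, with a median effect of 0.36. Their summed level was 292 to 3238 CPM in sham-vehicle (median 1617), 1268 to 3001 CPM in CKD-vehicle (median 2524), 131 to 2508 CPM in sham-Oxf (median 1077) and 158 to 2360 CPM in CKD-Oxf hearts (median 1498). None of these markers was at 0 in a whole group, and the part of atrial tissue was not tested. Nppa belongs to both lists.

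Genes of the cytosolic ribosome were higher in both arms in 78 of 83 members, although only 5 (6.02%) had an unadjusted p under 0.05, close to the 5.17% of all genes. The median effect was 0.21, with 0.22 over 49 large-subunit and 0.21 over 32 small-subunit genes. Rps27a, which encodes a ubiquitin fused to a ribosomal protein, had the smallest p (0.61 ± 0.21), with medians of 43.5 CPM in sham-vehicle and 71.6 CPM in CKD-vehicle hearts. Its sham-Oxf values were 33.3, 22.2, 27.6, 22.3 and 18.1 CPM against a CKD-Oxf range of 23.2 to 83.5 CPM. Rpl10a (0.33 ± 0.14), Rpl24 (0.41 ± 0.18) and Rpsa (0.38 ± 0.17) came next. Ribosomal protein genes have many processed copies in the genome, so their counts are uncertain. Without CKD-Oxf replicate 4, the library with the highest score of the Oxf arm, the list median was 0.10 and the Oxf-arm median -0.01 in place of 0.20.

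The mitochondrial ribosome had 56 of 76 members higher in both arms and 16 at an unadjusted p under 0.05, all higher (21.1%). Its median effect was 0.22, with 0.23 over 47 large-subunit and 0.18 over 29 small-subunit genes. Without CKD-Oxf replicate 4 the list median was 0.14, with an Oxf-arm median of 0.06 in place of 0.19. Mrpl47 was between 5.62 and 9.12 CPM in sham-vehicle (median 7.52) and between 7.33 and 13.4 CPM in CKD-vehicle hearts (median 9.35). Its sham-Oxf values of 5.36, 4.66, 5.94, 7.46 and 6.17 CPM overlapped the CKD-Oxf range of 6.27 to 10.3 CPM, and the effect was 0.39 ± 0.11. Mrpl44 (0.52 ± 0.20), Mrps33 (0.54 ± 0.20) and Mrps26 (0.40 ± 0.15) were the other members with the smallest p. With the 7SL covariate the list median was 0.04, and 2 members were higher and 1 lower at an unadjusted p under 0.05.

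Small nucleolar RNAs, which guide the chemical modification of ribosomal and spliceosomal RNA, were tested in 23 of 72 members, those that passed the filter on low counts. Of these, 15 were higher in both arms (65.2%, against 30.8% of all genes). At an unadjusted p under 0.05, 7 were higher (30.4%, against 5.17%) and 1 lower (4.35%, against 5.45%). The median effect was 0.33. Scarna6 had the smallest p (1.37 ± 0.41), with sham-Oxf values of 0, 0.383, 0.298, 0.216 and 0.416 CPM and a CKD-Oxf range of 0.415 to 4.06 CPM. Its groups overlapped in both arms, and its effect was 0.33 ± 0.50 in the vehicle arm. Snord15a (1.16 ± 0.41), Snord17 (1.10 ± 0.42) and Scarna13 (0.76 ± 0.30) lie inside other genes, whose reads cannot be told apart from theirs. Without sham-Oxf replicate 1, where the value of Scarna6 was 0, the list median was 0.19 and the list had no shared direction. Without CKD-Oxf replicate 4 the list median was 0.14.

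The other higher lists had medians between 0.06 (insulin signalling) and 0.26. Fatty acid oxidation had 30 of 36 members higher in both arms and a median effect of 0.26, mitochondrial dynamics and biogenesis 24 of 31 and 0.19, translation factors 47 of 63 and 0.14, and the proteasome 40 of 49 and 0.16. The 24 tested genes of the glucocorticoid response had a median of 0.14, with 0.07 in the vehicle arm and 0.27 in the Oxf arm. With the 7SL covariate the glucocorticoid list had a median of 0.10. Only 1 of its members, Pdk4, had an unadjusted p under 0.05 in the fit without a covariate.

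Clock outputs were lower and the activator Arntl higher in CKD hearts in both arms, with no gene past the threshold. The list of clock activators had no shared direction. Of its 8 members 4 were higher and 3 lower in both arms. At an unadjusted p under 0.05, 3 were higher (37.5%, against 5.17% of all genes) and 1 lower (12.5%, against 5.45%). The clock runs on Arntl and its partners, which drive the period and cryptochrome repressors and output factors such as Dbp, Hlf and Tef, so that activators and outputs peak at opposite times of day. In the list of repressors and outputs 9 of 12 members were lower in both arms (75%, against 29.7% of all genes). At an unadjusted p under 0.05, 5 were lower (41.7%, against 5.45%). The median effect was -0.47, with -0.65 in the vehicle arm and -0.14 in the Oxf arm. The Oxf-arm median was -0.36 without sham-Oxf replicate 1, and -0.08, -0.05 and -0.08 without sham-Oxf replicates 4 and 5 and CKD-Oxf replicate 1. Bhlhe41, a transcriptional repressor of the clock, was between 9.76 and 19.5 CPM in sham-vehicle (median 13.5) and between 8.53 and 12.6 CPM in CKD-vehicle hearts (median 9.81), with an effect of -0.44 ± 0.12. Its sham-Oxf values were 20.5, 27.0, 26.6, 20.2 and 22.5 CPM and the CKD-Oxf range was 15.7 to 27.6 CPM.

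Among the named clock genes the effects of Dbp were farthest apart in the arms, and no gene passed the interaction test. Its medians were 48.5 CPM in sham-vehicle and 20.6 CPM in CKD-vehicle hearts, an effect of -1.24 ± 0.33. In sham-Oxf hearts it was 63.1, 96.0, 130, 105 and 106 CPM and in CKD-Oxf hearts between 76.3 and 130 CPM, an effect of -0.10 ± 0.35. Hlf had an effect of -0.54 ± 0.16 and Tef one of -0.49 ± 0.19. Arntl had medians of 13.1 CPM in sham-vehicle and 20.8 CPM in CKD-vehicle hearts, and in the Oxf arm sham values of 2.51, 5.02, 2.15, 1.59 and 1.93 CPM against a CKD range of 3.24 to 15.1 CPM. The clock score, the mean level of night-phase genes minus that of day-phase genes, averaged -0.30 ± 1.00 (SD) in the sham group and -1.71 ± 0.95 in the CKD group of the vehicle arm, and 1.23 ± 0.62 and 0.78 ± 0.56 in the same order in the Oxf arm. The labels give no time of day of tissue collection. The groups were consecutive blocks of mouse numbers, 901 to 910, 913 to 920, 921 to 929 and 931 to 940 in the order just given. From the first to the last mouse the clock score went from -1.72 to 0.91 in sham-vehicle and from -2.60 to -0.87 in CKD-vehicle hearts. In sham-Oxf hearts it went from 0.13 to 1.63 and in CKD-Oxf hearts from -0.41 to 0.91. This order was not tested. With the clock score as covariate the median effect of the list was 0.13. Dbp, Tef, Hlf and Bhlhe41 are themselves night-phase genes of the score, so this fit cannot test the list. Collection time, order of mouse numbers and group cannot be told apart from these labels.

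The list of calcification and cartilage genes had 11 of 20 tested members lower in both arms, 2 at an unadjusted p under 0.05 (10.0%, against 5.45% of all genes) and 0 higher, and a median effect of -0.21. Without sham-Oxf replicate 2 the median was -0.14, with an Oxf-arm median of -0.06 in place of -0.25, and without sham-Oxf replicate 3 the Oxf-arm median was -0.03. Chad, a cartilage matrix protein gene, was between 1.37 and 4.33 CPM in sham-vehicle hearts (median 2.89) and between 0.396 and 1.99 CPM in CKD-vehicle hearts (median 1.43). Sham-Oxf hearts held 0, 4.91, 2.597, 2.19 and 3.15 CPM against 0.183 to 2.09 CPM in CKD-Oxf hearts, and the effect was -1.02 ± 0.36. Alpl, the tissue-nonspecific alkaline phosphatase that permits mineral to form, had an effect of -0.24 ± 0.11, and the cartilage protein gene Comp one of -0.51 ± 0.26. Acan, the cartilage proteoglycan aggrecan, went the other way (0.54 ± 0.27), at a low level and with 0 CPM in sham-Oxf replicate 1. Its effect ranged from 0.40 to 0.64 when single libraries were left out. The 8 tested valve and cartilage markers moved with this list: 5 were lower in both arms, and their summed level had medians of 55.1 CPM in sham and 33.8 CPM in CKD hearts of the vehicle arm, and of 39.0 CPM and 27.7 CPM in those of the Oxf arm. Chad, Comp and Acan belong to both lists, and the part of valve tissue was not tested.

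The remaining lower lists were close to the median of all genes. In the NLRP3 inflammasome list 8 of 22 members were lower in both arms and 6 higher, with 1 at an unadjusted p under 0.05 in each direction. Its medians were -0.13 in the vehicle arm and 0.01 in the Oxf arm, where the median of all genes was 0.05. All 10 lymphoid markers had a negative fitted effect in both arms, 0 at an unadjusted p under 0.05, with a median effect of -0.72 (0.11 with the 7SL covariate). In the Oxf arm this sign depended on the measure. The mean score of these markers, on the log2 scale, was -0.17 in sham-Oxf and 0.07 in CKD-Oxf hearts. Sham-Oxf replicate 2 had a score of 4.10. The summed level of the markers was 5.70 to 295 CPM in sham-vehicle (median 38.7), 6.95 to 178 CPM in CKD-vehicle (median 7.99), 7.47 to 1105 CPM in sham-Oxf (median 9.20) and 5.68 to 756 CPM in CKD-Oxf hearts (median 9.40). None was at 0 in a whole group, and the part of lymphoid cells was not tested. Rela, a subunit of NF-kappaB, had an effect of -0.29 ± 0.10, whereas Nlrp3, the sensor itself, had one of 0.66 ± 0.27 at about 1 CPM, with sham-Oxf values of 0, 0.811, 1.10, 0.270 and 0.599 CPM. Nek7, which binds Nlrp3, stood at 0.22 ± 0.12, and the DNA sensor gene Aim2 at -0.29 ± 0.17. In the smooth muscle and pericyte list 10 of 22 members were lower in both arms and 5 higher. Its named members were the integrin gene Itga8 (-0.75 ± 0.22), the actin-binding Tagln (-0.45 ± 0.18), the intermediate filament gene Des (0.38 ± 0.18), which cardiomyocytes also express, and Gucy1a3 (0.22 ± 0.11), a subunit of the nitric oxide receptor. Neither the NLRP3 list nor the smooth muscle list kept its direction without sham-Oxf replicate 1.

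Liver transcripts had opposite signs in the arms, a difference that was not tested for the list. The 10 liver markers had a median effect of -2.76 in the vehicle arm and 0.62 in the Oxf arm, at summed levels between 8.80 and 142 CPM. Mup20, a urinary protein gene of the liver, was named after its values had been seen. It was at medians of 0.438 CPM in sham-vehicle and 0.0104 CPM in CKD-vehicle hearts without overlap. In sham-Oxf hearts it was 5.12, 0.968, 0.0298, 0.216 and 0.0781 CPM, and in CKD-Oxf hearts between 0 and 2.56 CPM, which overlapped. Mup genes have near-identical copies, so their counts are uncertain. They made up 10 of the 103 genes called by DESeq2 and 16 of the 45 called with the 7SL covariate.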

How the data were processed

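RNA of ventricular myocardium from 28 mice was sequenced on an Illumina instrument, per the labels. The authors deposited whole-number gene counts in a single table. Per the submitters' processing notes, STAR 2.6.1d, Subread featureCounts 1.6.3, FastQC 0.11.7, MultiQC 1.9 and build mm10 were used; annotation and strand use are not given in the sources used here, so overlapping and antisense genes are uncertain. Of 45513 gene rows, 45465 identifiers were found in GENCODE M21 (GRCm38), used for positions. Samples were grouped by their titles, and replicates numbered in record order.

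Counts were normalised by TMM and tested with edgeR 4.0.16 in R 4.3.3 (robust quasi-likelihood F test, 4 group means, filterByExpr with minimum count 10), with Benjamini-Hochberg adjustment over 24273 genes and a threshold of 0.05. CPM are counts scaled to a common library size after TMM factors. DESeq2 1.42.0, limma 3.58.1 (voom, sample weights), covariates, filters and leaving out libraries were alternatives. Library measures used exact two-sided permutation within arms. On simulated counts for the averaged comparison over 24273 genes, 86 of 100 genes changed by 1 on the log2 scale and 41 of 100 changed by 0.5 were recovered, with 9 false calls. The changed genes were drawn only from those above a minimum mean level, and recovery was not split by abundance. It therefore cannot be read as the power for genes of low level. It holds for simulated counts only, and recovery in the measured libraries was not tested.

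Named genes were, where fewer than 24 passed, the 12 higher and 12 lower protein-coding genes with the smallest p, a mean of at least 1 log2 CPM and the same sign in both arms, the gene with the smallest p of any kind, up to 4 members of each list described, and genes called in an arm. Hspa1a, Dnajb1, Chordc1, Mup20 and other list members outside this rule were named after their values were seen. A gene that the rule names is not reported here. Lists and the comparison were chosen with earlier results of these data known. Nothing says how the mice analysed were selected from the 40 of the design, so the p-values measure the spread between these mice. Promoter windows were RefSeq's (GRCm38.p6).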

Additional observations from a re-analysis of the deposited data

Results flagged for a closer look

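In groups of 4 to 10 libraries, 15 of 164 checks found an extreme library whose gap to its nearest neighbour took up more of the group's range than Dixon's 95% value allows; chance gives about 1 in 20, or 8.2. The values below are that gap as a share of the range. In sham-Oxf replicate 1 the number of genes detected was low (0.796), the 7SL share high (0.784), the clock score low (0.790), the score of clock repressors and outputs low (0.761), the NLRP3 inflammasome score low (0.785) and Pamr1 high (0.772). In sham-Oxf replicate 2 the score of branched-chain amino acid breakdown was low (0.746), and in replicate 5 Hsph1 was high (0.761). In CKD-Oxf replicate 1 Slc41a3 (0.746) and Osbpl1a (0.653) were high and the clock score was low (0.630), and in CKD-Oxf replicate 4 the cytosolic ribosomal protein score was high (0.592). In CKD-vehicle replicate 2 Cish was high (0.671) and Angptl7 low (0.653), and in CKD-vehicle replicate 4 Kcnj12 was low (0.779).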

How the results depend on the processing

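For surgery averaged over gavage the edgeR count of 0 became 103 with DESeq2, 125 with limma voom, 45 with the 7SL covariate and 2 with the clock covariate, and ranged from 0 to 1 when single libraries were left out (1 without sham-vehicle replicate 5). The vehicle-arm count of 2 became 29 with DESeq2, 55 with limma, 1 without a filter, 22 with the 7SL covariate, 0 with the clock covariate and 1 when only its 2 groups were fitted, and ranged from 0 to 2 when single libraries were left out; the Oxf-arm count of 0 became 100 with DESeq2. The 20 higher lists became 1 with the 7SL covariate and 14 with the clock covariate, of which 10 were among the 20. Their number ranged from 8 (without sham-Oxf replicate 2) to 23 when single libraries were left out. The 4 lower lists became 2 with means in place of medians and 9 with the clock covariate, and ranged from 2 to 7. Without sham-Oxf replicate 1 the difference in library total was 7.79 M, no longer past the threshold, and the difference in genes detected turned from 1108 to -467. Tef turned from -0.49 to 0.084 with the clock covariate, a score in which Tef is itself counted. The causes were not tested beyond these fits. Leaving out sham-Oxf replicate 1 together with CKD-Oxf replicate 4, or sham-vehicle replicates 3 and 5, was added after seeing the data and gave 20 and 23 higher lists. No paired analysis was possible because the labels give each mouse its own number and no number is shared between groups. Depth limits the precision of genes near 1 CPM or below, such as Scarna6 and Nlrp3. Both had a count of 0 in sham-Oxf replicate 1, the library with the smallest total and the fewest genes detected. So did Acan, Snord15a and Chad, of which Chad was at 2.19 to 4.91 CPM in the other sham-Oxf hearts. The cause was not tested.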
